A study of Mus musculus with 15 samples.

Results

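The 10 genes described here serve MHC class II antigen presentation and were followed through the development of insulitis in islets of NOD mice. They are the alpha and beta chain genes H2-Aa, H2-Ab1 and H2-Eb1, the invariant chain gene Cd74, the transactivator gene Ciita, the DM genes H2-DMa, H2-DMb1 and H2-DMb2, and the DO genes H2-Oa and H2-Ob. They were taken by name from the deposited gene table, which holds 10 of them among 48709 genes. RNA of pancreatic islets was sequenced from 15 female NOD/ShiLtJ mice, an inbred strain that develops autoimmune diabetes, with 3 mice at each of 5 ages: 4, 6, 8, 10 and 12 weeks. All mice were NOD, no other strain is among them and the labels name no treatment. Collagenase digestion and a density gradient freed the islets, which were then hand-picked. Each sample therefore holds the endocrine cells together with whatever immune, vascular, stromal and exocrine cells came with the islets.

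MHC class II molecules are pairs of an alpha and a beta chain that show peptides from endosomes to CD4 T cells. In the endoplasmic reticulum the new pair is held by the invariant chain, which is cut down in endosomes to a short peptide in the groove. The DM dimer exchanges that peptide for others, and the DO dimer, found mainly in B cells, restrains DM. Ciita does not bind DNA itself but joins the factors RFX, CREB and NF-Y that sit on the X and Y boxes of class II promoters, and interferon gamma is a known inducer of it. Dendritic cells, macrophages and B cells are the main class II cells, and in NOD mice the class II haplotype is the strongest inherited risk for diabetes.

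Class II promoters share a short X box and Y box upstream of the start site, and these stretches are shown because the genes they precede rose together in these islets. The sequences are those of RefSeq on GRCm38.p6, the C57BL/6J reference, and not of the NOD alleles, which were not read here. Of the 10 genes, 7 had a window of 250 bases before to 50 bases after a start site, and H2-Ab1, Cd74 and Ciita had none. Capitals mark the Y box-like letters TGATTGG, the X box-like letters AACNNATG and, in H2-Aa, the X2 box-like letters TGACGTCA.
H2-Aa: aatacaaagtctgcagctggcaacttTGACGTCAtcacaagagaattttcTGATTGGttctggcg
H2-Eb1: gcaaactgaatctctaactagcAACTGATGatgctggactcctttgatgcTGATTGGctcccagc
H2-Ob: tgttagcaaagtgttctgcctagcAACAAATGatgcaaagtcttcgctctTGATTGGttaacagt
H2-Oa: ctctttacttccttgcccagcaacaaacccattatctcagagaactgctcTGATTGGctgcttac
H2-DMb1: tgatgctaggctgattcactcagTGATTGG
H2-DMb2: tgatgctaggctaagtcacttagTGATTGG
On GRCm38 they lie at chr17:34287859-34287923 on the minus strand (H2-Aa) and, on the plus strand, at chr17:34305756-34305820 (H2-Eb1), chr17:34238796-34238860 (H2-Ob), chr17:34092284-34092348 (H2-Oa), chr17:34153105-34153134 (H2-DMb1) and chr17:34145134-34145163 (H2-DMb2). The H2-DMb1 and H2-DMb2 stretches are kept to 30 bases because the gene regions in the deposited table begin upstream of them. Their AACNNATG, with 21 bases between it and TGATTGG, therefore begins before the printed bases and is not shown in full. The H2-DMb1 stretch lies in an annotated exon of GENCODE M21. Of the H2-Oa stretch, 9 bases lie inside its gene region in the deposited table and 9 in annotated exons of GENCODE M21.

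The letters were chosen after the windows had been looked at, and each motif was searched on both strands. TGATTGG stood on the strand of the gene in the windows of 6 of the 7 genes, its first base 45 to 92 bases before the start site. The exception was H2-DMa, whose 2 windows lie away from its region in the table. Of all 32851 windows, 7.82% held TGATTGG on either strand, 8.86% held AACNNATG and 1.79% held TGACGTCA. AACNNATG followed within 30 bases by TGATTGG on the strand of the gene was found in 12 windows, or 0.0365%, and 4 of them belonged to H2-Eb1, H2-DMb1, H2-DMb2 and H2-Ob. H2-Eb2, a class II beta chain gene that is not one of the 10, had another. These matches describe letters in a reference sequence and say nothing of binding in these islets.

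Counts per sample ran from 25407492 to 41616275, and mice of the same age were distinct libraries (chi-square divided by its degrees of freedom, 15.9 to 127 between replicates). Values per mouse are given as CPM, the counts scaled to library size with TMM factors, in the order of replicates 1, 2 and 3, and tests were made with the quasi-likelihood test of edgeR over 16554 genes with Benjamini-Hochberg adjustment. All 10 genes passed the filter on low counts. Because the labels say only that these are separate samples, p-values measure the spread between mice as deposited. Before the results, 3 mice stand apart from the others of their age: 4-week replicate 1 and 6-week replicate 3 were high in class II RNA, and 8-week replicate 1 was low. Together the 10 genes took 0.0119 to 0.0941% of a mouse's counts at 4 weeks and 0.460 to 0.732% at 12 weeks.

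Reads of NOD mice were aligned to the mm10 reference, which carries the H-2b haplotype, whereas NOD mice carry H-2g7. Reads of the polymorphic chains that differ from the reference may fail to align or may be placed on a related gene. All 15 mice share the strain, so this is common to every age, but levels of one gene against another can carry it, and its size was not tested. NOD mice make no I-E alpha chain, and H2-Ea-ps, the pseudogene row for that chain, held 1 count in each of 2 mice of 12 weeks and 0 in the other mice, against a floor of 3 counts. H2-DMb1 and H2-DMb2 are near copies that lie next to each other, and how the authors' counting divided reads between them is not given in the sources used here.

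All 10 genes were higher at 12 than at 4 weeks, by 7.36-fold to 61.6-fold, and the mice of the 2 ages did not overlap for any of them. The adjusted p ran from 0.000388 to 0.00483 (edgeR quasi-likelihood test, 3 mice per age). Among all genes tested, 26.3% were called higher at 12 weeks and 30.3% had every 12-week value above every 4-week value. The median log2 fold change was 3.60 over the 10 genes and -0.05 over all genes. The size of the change leaned on 4-week replicate 1. Without that mouse, and leaving H2-Oa aside, the log2 fold changes ran from 3.54 for H2-DMa to 7.95 for H2-Ob. That of H2-Ob was fitted against 6 and 4 counts at 4 weeks. All 10 genes were still called, and the share of all genes called in that fit is not given here. H2-Oa then held 1 and 0 counts at 4 weeks, under the floor, and its fitted change is not read. In islet RNA, more cells of a type and more RNA per cell cannot be told apart.

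**Figure D1:**
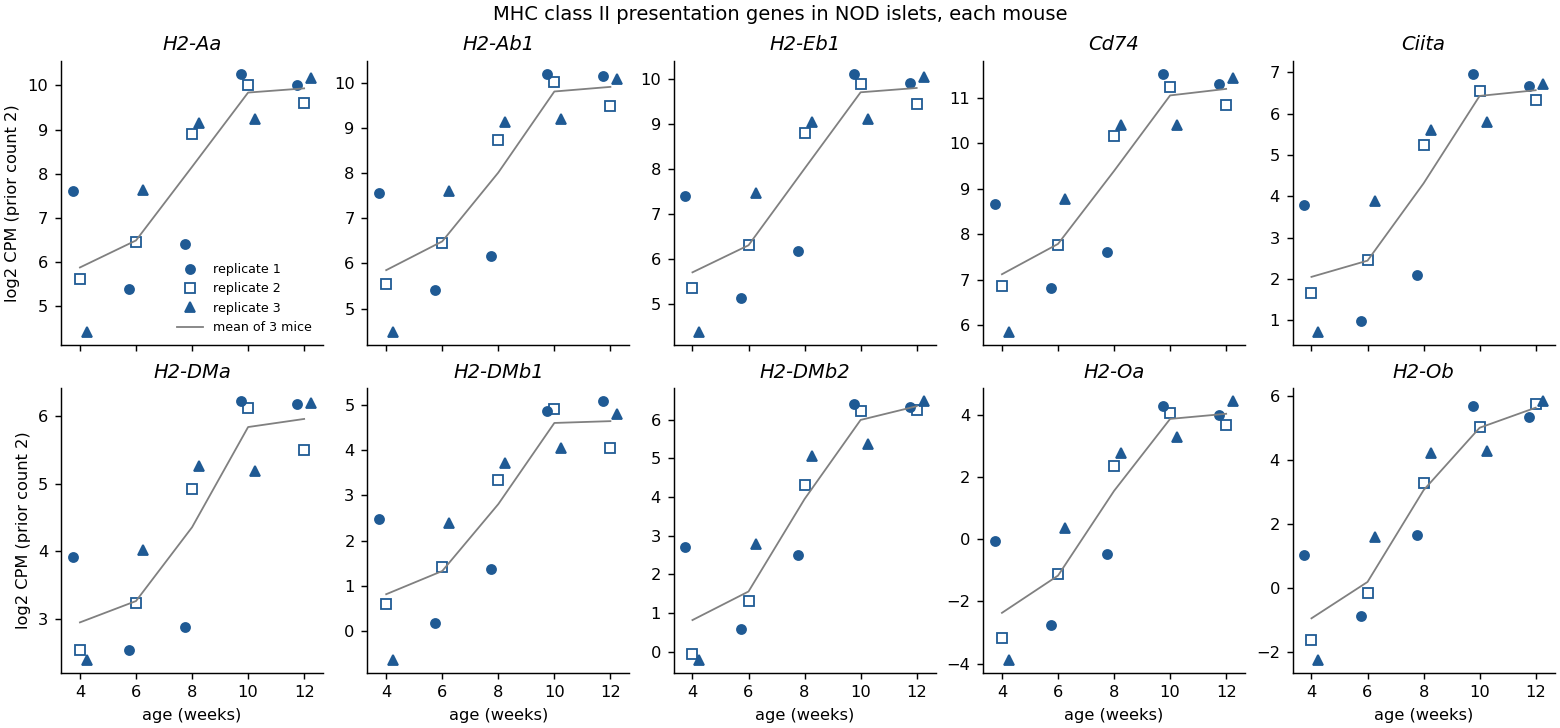
Each panel plots log2 CPM (with a prior count of 2) of a class II gene against age in weeks, with a symbol for each of 3 mice per age and a line through the means. In every panel 10- and 12-week mice lie above all 4- and 6-week mice, and 8-week replicate 1 sits far below the other 8-week mice.

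H2-Aa (ENSMUSG00000036594), on the minus strand at chr17:34282744-34287827, encodes the alpha chain of I-A, the class II molecule on which NOD mice depend. It stood at 194, 49.0 and 20.9 CPM at 4 weeks, at 41.4, 87.7 and 196 at 6 weeks, at 84.9, 479.5 and 567 at 8 weeks, at 1227, 1035 and 603 at 10 weeks and at 1038, 782 and 1152 at 12 weeks. Every mouse of 10 or 12 weeks was above every younger mouse, and the spread within an age was widest at 4 weeks, where the highest mouse had 9.24 times the lowest. The log2 fold change from 4 to 12 weeks was 3.50 (SE 0.86, adjusted p = 0.00483).

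H2-Ab1 (ENSMUSG00000073421, chr17:34263209-34269418, plus strand) encodes the I-A beta chain, the chain that carries the diabetes-linked residue of the NOD haplotype. It spanned 22.1 to 187 CPM at 4 weeks, 42.5 to 193 at 6 weeks, 71.5 to 561 at 8 weeks, 588 to 1165 at 10 weeks and 717 to 1124 at 12 weeks, with a log2 fold change of 3.52 (SE 0.87, adjusted p = 0.00483) from 4 to 12 weeks. H2-Eb1 (ENSMUSG00000060586, chr17:34305877-34316199, plus strand) encodes the I-E beta chain, which has no alpha partner in this strain. Its RNA ran from 20.4 to 167 CPM at 4 weeks, from 34.9 to 176 at 6 weeks, from 71.9 to 529 at 8 weeks, from 555 to 1109 at 10 weeks and from 695 to 1057 at 12 weeks. Its log2 fold change was 3.57 (SE 0.87, adjusted p = 0.00457), within its SE of those of H2-Aa and H2-Ab1.

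Cd74 (ENSMUSG00000024610, chr18:60803848-60812646, plus strand) encodes the invariant chain and per transcript length was the most abundant of the 10 at 12 weeks. Its CPM was 404, 117 and 57.5 at 4 weeks, 113, 217 and 441 at 6 weeks, 196, 1156 and 1341 at 8 weeks, 2928, 2406 and 1352 at 10 weeks and 2532, 1817 and 2769 at 12 weeks. The mice fell in nearly the same order as for H2-Aa, with the 3 mice named above again apart from their ages. From 4 to 12 weeks Cd74 rose by 3.62 on the log2 scale (SE 0.82, adjusted p = 0.00295).

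Ciita (ENSMUSG00000022504, chr16:10488178-10527564, plus strand) encodes the transactivator on which class II transcription depends. It stood at 13.7, 3.08 and 1.56 CPM at 4 weeks, at 1.90, 5.39 and 14.8 at 6 weeks, at 4.20, 37.6 and 48.7 at 8 weeks, at 125, 93.1 and 55.1 at 10 weeks and at 102, 80.1 and 105 at 12 weeks. Its log2 fold change from 4 to 12 weeks was 3.96 (SE 0.94, adjusted p = 0.00394). Its region overlaps Dexi on the opposite strand, which held 6599 counts over the 15 mice against 21316 for Ciita, and whether the counting used strand is not stated.

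The DM genes code for the dimer that edits the peptide. H2-DMa (ENSMUSG00000037649, chr17:34135182-34139101, plus strand), the alpha chain of DM, was at 14.9, 5.73 and 5.17 CPM at 4 weeks, at 5.71, 9.37 and 16.1 at 6 weeks, at 7.30, 30.2 and 38.3 at 8 weeks, at 74.4, 69.1 and 36.2 at 10 weeks and at 72.7, 45.2 and 72.8 at 12 weeks. It had the smallest change of the 10 genes, a log2 fold change of 2.88 (SE 0.60, adjusted p = 0.00187). H2-DMb1 (ENSMUSG00000079547, chr17:34153072-34160230, plus strand), a DM beta chain, ran from 0.579 to 5.50 CPM at 4 weeks and from 16.5 to 33.6 at 12, and rose by 3.36 (SE 0.78, adjusted p = 0.00333).

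H2-DMb2 (ENSMUSG00000037548, chr17:34143307-34151553, plus strand), the other DM beta chain, rose further than its neighbour. Its CPM was 6.47, 0.898 and 0.796 at 4 weeks, 1.43, 2.39 and 6.82 at 6 weeks, 5.54, 19.6 and 33.0 at 8 weeks, 84.6, 74.0 and 40.9 at 10 weeks and 79.5, 75.9 and 88.7 at 12 weeks. At 12 weeks its 3 mice were within 1.17 times of each other, the closest of the 10 genes at that age. The log2 fold change was 4.89 (SE 0.84, adjusted p = 0.000656).

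The DO genes had the largest fitted changes. H2-Oa (ENSMUSG00000024334, chr17:34092340-34095234, plus strand), the DO alpha chain, held 24, 1 and 0 counts in the mice of 4 weeks and 484, 382 and 684 in those of 12 weeks. On the CPM scale it was at 0.898, 0.0428 and 0 at 4 weeks, at 0.0792, 0.395 and 1.22 at 6 weeks, at 0.657, 4.99 and 6.82 at 8 weeks, at 19.4, 16.4 and 9.57 at 10 weeks and at 15.7, 12.8 and 21.5 at 12 weeks. With 2 of 3 mice at or under the floor of 3 counts, its log2 fold change of 5.69 (SE 1.07, adjusted p = 0.00101) depends on the prior count of the fit. The overlapping BC051537 on the opposite strand held 3 counts in all mice together.

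H2-Ob (ENSMUSG00000041538, chr17:34238903-34245907, plus strand), the DO beta chain, had a log2 fold change of 5.95 (SE 0.91, adjusted p = 0.000388), and its order against H2-Oa is not read, since H2-Oa was at the floor at 4 weeks. It stood at 1.98, 0.257 and 0.145 CPM at 4 weeks, at 0.475, 0.842 and 2.96 at 6 weeks, at 3.10, 9.73 and 18.4 at 8 weeks, at 51.4, 32.5 and 19.5 at 10 weeks and at 39.9, 53.1 and 56.5 at 12 weeks. It was the only gene of the 10 whose mice of 6 and 8 weeks did not overlap. H2-Eb2, a further class II beta gene that is no member of the set, moved by 6.59 on the log2 scale between 4 and 12 weeks (SE 0.93, adjusted p = 0.000302). It held 16, 2 and 2 counts at 4 weeks, so the size of that change also depends on the prior count.

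Between the means of the 5 ages, the rise was not spread evenly. Between 73.2 and 88.3% of the change in mean log2 CPM from 4 to 12 weeks fell between 6 and 10 weeks, the lowest share being that of H2-Ob and the highest that of Ciita. These shares leaned on 4-week replicate 1, and no test compared 10 with 6 weeks. With a mouse left out, the log2 fold change of H2-Aa from 4 to 6 weeks reached 1.63. Without 4-week replicate 1, its change from 4 to 12 weeks was 4.82. H2-Oa held 24, 1 and 0 counts at 4 weeks, so its share also depends on the prior count. A test for any change over the 5 ages called all 10 genes, with an adjusted p of 0.000530 to 0.00709, beside 56.0% of all genes.

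From 4 to 6 weeks none of the 10 genes was called by edgeR, DESeq2 or the edgeR exact test, none had an unadjusted p under 0.05, and all 10 overlapped between ages. Their log2 fold changes ran from 0.22 to 0.79, with an adjusted p of 0.928 to 0.989. Of all genes 0.00604% were called higher and 8.34% were higher without overlap. The high mouse at each age, 4-week replicate 1 and 6-week replicate 3, set the mean of its group: H2-Aa was at 194 and 196 CPM in them and at 20.9 to 87.7 in the other mice of 4 and 6 weeks.

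From 6 to 8 weeks the 10 genes had log2 fold changes of 1.28 to 2.90. None was called at an adjusted p under 0.05 by edgeR, DESeq2 or the exact test, and 0.0% of all genes were called higher. At the study's threshold of a 1.5-fold change with an unadjusted p under 0.05, 8 of 10 were higher, beside 8.4% of all genes. H2-Ab1 and H2-DMb1 passed the fold, at log2 fold changes of 1.71 and 1.54. They missed the p (unadjusted p = 0.0553 and 0.0586, edgeR quasi-likelihood test). Only H2-Ob was free of overlap, beside 7.62% of all genes. The overlap came with 8-week replicate 1, in which H2-Aa was at 84.9 CPM against 479.5 and 567 in its companions, and in which the macrophage, dendritic cell and T cell markers were low as well. Without that mouse, which was singled out for its low class II RNA, H2-DMb2, H2-Oa and H2-Ob were called (adjusted p = 0.0419, 0.0428 and 0.0346, edgeR). The count at the study's threshold ran from 3 to 10 over the mice left out. The share of all genes passing in these fits is not given here, so these counts are not read as a result about the class II genes.

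From 8 to 10 weeks the log2 fold changes were 1.25 to 1.86, with an adjusted p of 0.0911 to 0.239, so that none was called, beside 8.4% of all genes called higher. DESeq2 and the exact test called none either. At the study's threshold 5 of 10 were higher (H2-DMa, H2-DMb1, H2-DMb2, H2-Oa and H2-Ob), beside 11.1% of all genes. All 3 mice of 10 weeks lay above all 3 of 8 weeks for 9 of the 10 genes, beside 17.2% of all genes, H2-DMa being the exception. The count of 5 fell to 0 without 8-week replicate 1, 8-week replicate 2, 10-week replicate 1 or 10-week replicate 2. The share of all genes passing in these fits is not given here, so this fall is not read as a result about the class II genes.

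From 10 to 12 weeks all 10 genes overlapped and none was called by any of the 3 tools or at an unadjusted p under 0.05, beside 0.0% of all genes called higher and 4.42% higher without overlap. The log2 fold changes were 0.05 to 0.53, the highest being that of H2-Ob. With 6 mice on each side, a comparison of 10 and 12 weeks with 4 and 6 weeks that was added after the data had been seen called all 10 genes, none of which overlapped. Log2 fold changes were 2.71 to 5.28 and the adjusted p ran from 2.99e-05 to 0.000453, beside 30.1% of all genes called higher and 19.7% higher without overlap.

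**Figure D2:**
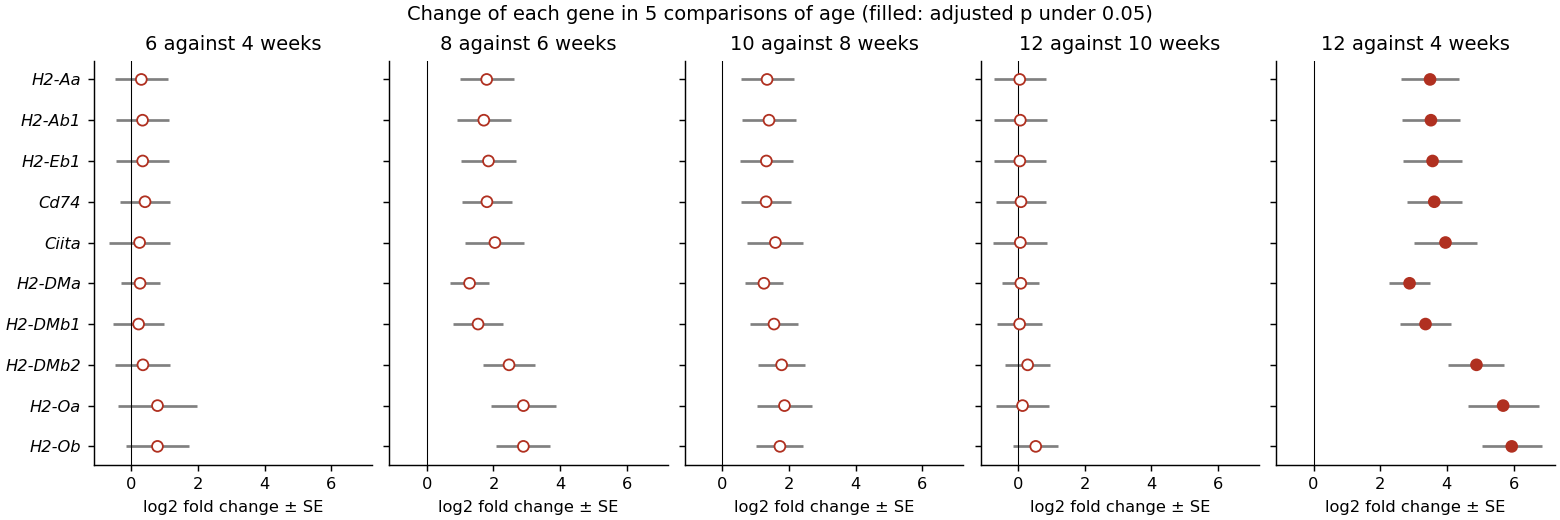
Points give the log2 fold change of each class II gene with its SE (bars) in 5 comparisons of age, filled where the adjusted p was under 0.05. Only the comparison of 12 with 4 weeks has filled points, and the points of 6 against 4 and of 12 against 10 weeks lie near 0.

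Levels can be set side by side between genes per length of transcript, in the TPM values of the authors, which are scaled by transcript length and library. At 12 weeks Cd74 stood at 4255 ± 1076 TPM (SD, n = 3), above H2-Eb1 at 1931 ± 488, H2-Ab1 at 1507 ± 385 and H2-Aa at 1337 ± 320, each with n = 3. The chain genes could not be ordered by their ranges, since H2-Eb1 overlapped H2-Ab1 and H2-Ab1 overlapped H2-Aa, although H2-Eb1 was above H2-Ab1 and H2-Ab1 above H2-Aa in every 12-week mouse. Below them came H2-DMb2 at 120.0 TPM and H2-DMa at 97.8, and lower still Ciita at 45.9, H2-DMb1 at 43.8, H2-Ob at 40.0 and H2-Oa at 32.2. Neighbours within these groups overlapped, while Cd74 and H2-Eb1, H2-Aa and H2-DMb2, and H2-DMa and Ciita did not.

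Ratios within the same mouse show whether the genes moved by equal amounts, free of the scaling between mice. H2-Ab1, H2-Eb1 and Cd74 kept to H2-Aa: in every mouse of 4 and 12 weeks the log2 ratio of H2-Ab1 was between -0.13 and 0.12, that of H2-Eb1 between -0.28 and -0.04 and that of Cd74 between 1.06 and 1.45. The difference between 12 and 4 weeks was -0.01 for H2-Ab1, 0.04 for H2-Eb1 and 0.00 for Cd74, and each overlapped. A difference this small was within the spread between mice, and a p that misses the threshold does not show that the ratios were equal.

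Of the other 6 genes, 5 moved relative to H2-Aa. Relative to H2-Aa, Ciita was higher at 12 than at 4 weeks by 0.46 on the log2 scale, H2-DMb2 by 1.46, H2-Oa by 2.33 and H2-Ob by 2.50, all without overlap. H2-DMa fell by 1.05 relative to H2-Aa, also without overlap, and H2-DMb1, at a difference of -0.25, overlapped. With 3 mice against 3 the exact permutation test cannot go below p = 0.1, which these differences reached, and the adjusted p over 11 ratios was 0.183. The H2-Oa difference was 3.31 with a prior count of 0.5, since its counts at 4 weeks were at the floor, and the H2-DMa difference came down to -0.59 without 4-week replicate 3. Over 6 against 6 mice (10 and 12 against 4 and 6 weeks, added after the data had been seen) the differences were 0.55 for Ciita, 1.27 for H2-DMb2, 2.01 for H2-Oa, 1.98 for H2-Ob and -0.92 for H2-DMa, each at p = 0.00216, the smallest the exact permutation test can give (adjusted p = 0.00397).

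The DM beta genes differed from each other in their change, whereas no difference was found within the DO pair. H2-DMb2 against H2-DMb1 had log2 ratios of 0.23, -0.66 and 0.42 at 4 weeks and of 1.24, 2.20 and 1.69 at 12 weeks, without overlap, and the difference over 6 against 6 mice was 1.44 (exact permutation p = 0.00216). The DM beta genes are near copies, and how reads were divided between them is not given. The effect of that division on this ratio was not tested. H2-Oa against H2-Ob overlapped between ages, at a difference of -0.17 between 12 and 4 weeks (exact permutation p = 0.6) that turned to 0.59 with a prior count of 0.5, since H2-Oa was at the floor at 4 weeks. The H2-Ob ratio to H2-Aa was already -4.75 in 8-week replicate 1, above the -7.24 to -6.02 of the mice of 4 and 6 weeks, although that mouse was low in class II RNA as a whole.

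**Figure D3:**
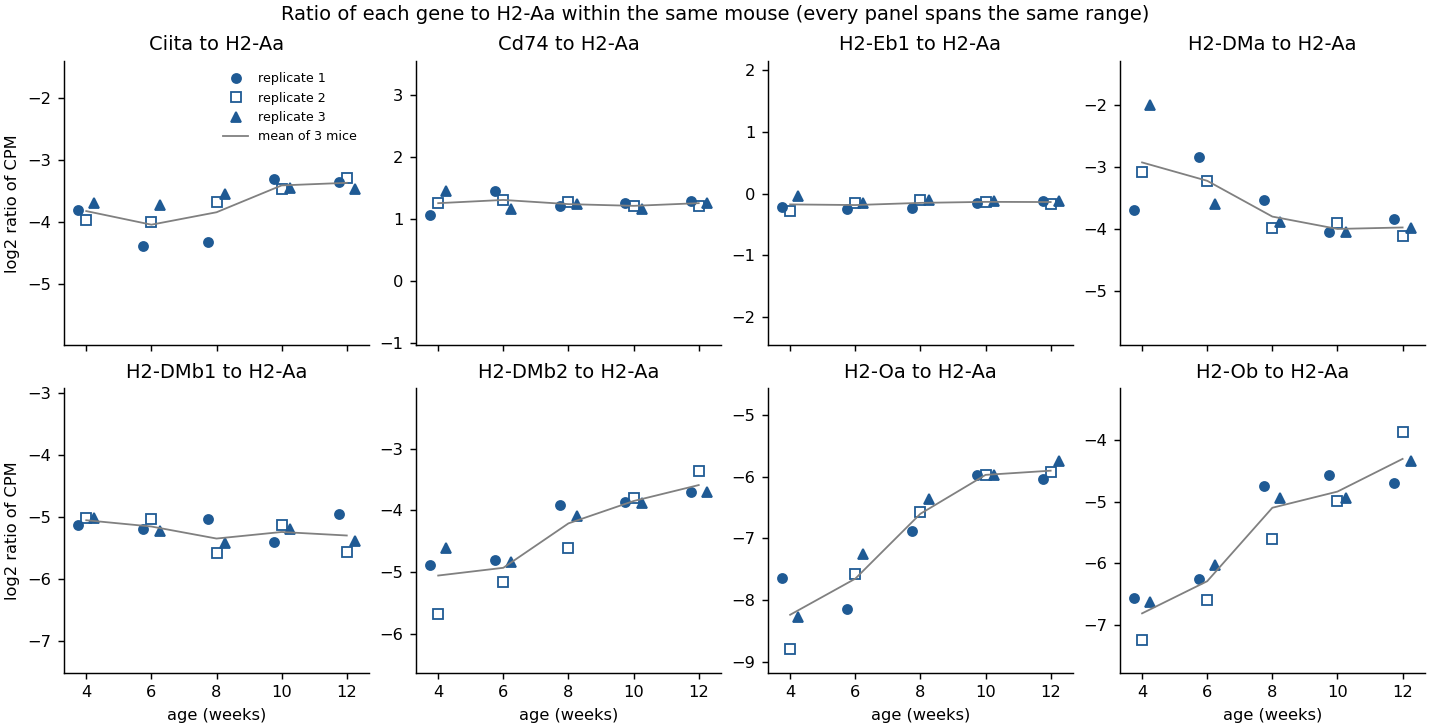
Panels plot the log2 ratio of a gene to H2-Aa in the same mouse against age in weeks, one symbol per mouse and a line through the means, each panel spanning the same range. The ratios of Cd74 and H2-Eb1 stay level, those of Ciita, H2-DMb2, H2-Oa and H2-Ob lie higher at 10 and 12 weeks than at 4 and 6 weeks, and that of H2-DMa lies lower.

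Cell type markers moved with age beside the class II genes, so the marker lists are given with them, and their part in the class II result was not tested. Between 4 and 12 weeks all 8 markers of macrophages, all 8 of dendritic cells, all 8 of T cells and all 8 of B cells were called higher, with median log2 fold changes of 2.54, 3.25, 4.85 and 8.38 against 3.60 for the class II genes and beside 26.3% of all genes called higher. Of 7 endocrine markers 6 were called lower (median log2 fold change -0.90), beside 27.2% of all genes called lower, and none of 6 acinar markers was called by edgeR or had an unadjusted p under 0.05. The endocrine markers were abundant in every mouse, so the labelled tissue was present throughout. All 5 lymph node stroma markers were called higher, and of 6 endothelial markers 4 were higher and 1 lower.

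The macrophage markers summed to 80.2 to 189 CPM at 4 weeks and to 464 to 693 at 12 weeks, the dendritic cell markers to 11.1 to 36.2 and 145 to 224, and the T cell markers to 2.82 to 30.1 and 279.8 to 390.3. The B cell markers went from 4.60 to 8.94 CPM at 4 weeks to 312 to 519.8 at 12 weeks. At 4 weeks Cr2 held 2, 3 and 0 counts and Blk held 2, 1 and 0 counts, while Cd79a, a chain of the B cell receptor complex, held 156, 179 and 125 counts and made up most of the sum. The mice with high class II RNA at 4 and 6 weeks, 4-week replicate 1 and 6-week replicate 3, had the highest macrophage, dendritic cell and T cell sums of their ages. In 4-week replicate 1 the B cell markers summed to 7.45 CPM, within the range of its age, but without Cd79a (a sum added after the data had been seen) the 7 others came to 1.61 CPM, the highest of its age, against 1.28 and 0.0724. In 6-week replicate 3 they summed to 20.7 CPM, the highest of its age with Cd79a or without it. In 8-week replicate 1 the B cell markers stood at 47.2 CPM, against 51.4 in 8-week replicate 2 and 121 in 8-week replicate 3. Its T cell markers stood at 7.55 CPM against 107 and 148 in the other mice of 8 weeks.

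**Figure D4:**
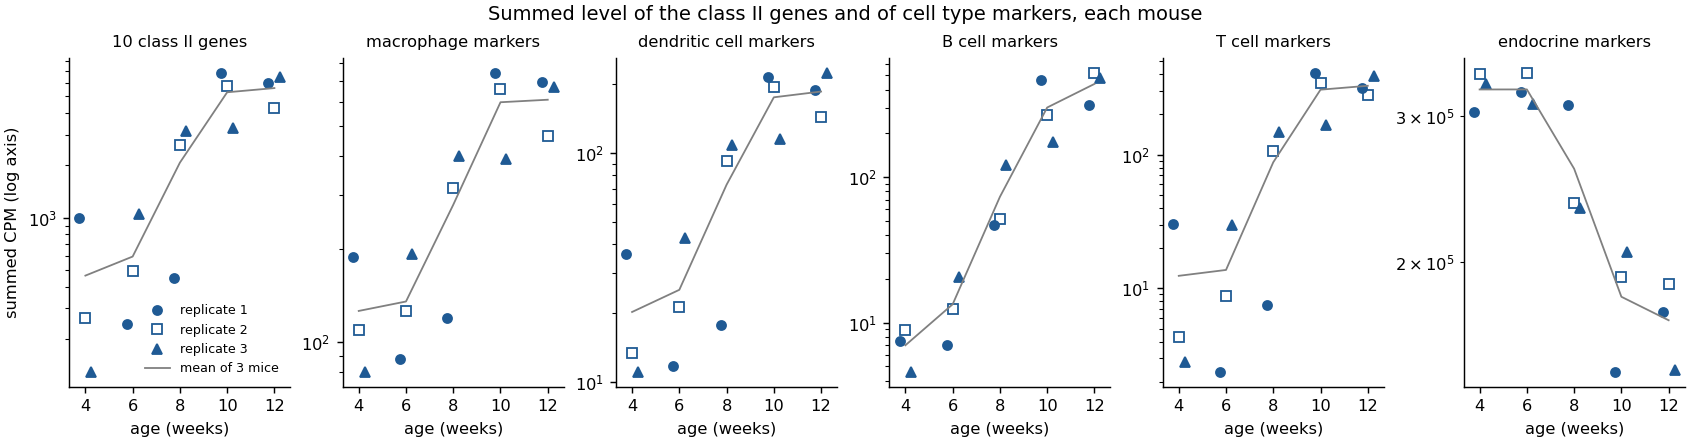
Each panel plots the summed CPM (log axis) of the 10 class II genes or of a marker list against age in weeks, a symbol per mouse and a line through the means. The class II, macrophage, dendritic cell, B cell and T cell sums lie higher at 10 and 12 weeks than at 4 and 6 weeks, and the endocrine sum lies lower.

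The genes whose pattern over the 15 mice was most like H2-Aa were found by the root mean square difference of centred log2 CPM. They were Fyb (0.144), an adaptor of T cells and myeloid cells, Ncf1 (0.172), a subunit of the phagocyte oxidase, Myo1f (0.185), Irf8 (0.194), a transcription factor of dendritic cells, and Siglech (0.197), a marker of plasmacytoid dendritic cells, where the median of all genes was 1.95. H2-Eb1 (0.0614), H2-Ab1 (0.0896) and Cd74 (0.0966) were closer to H2-Aa than any of them, and H2-Ob (0.978) and H2-Oa (0.969) were the farthest class II genes. Nearest to Ciita were Myo1g (0.174), Sla, Cd48, Itgae and Pdcd1lg2. Nearest to H2-Ob were Fcrl1 (0.287), a receptor of B cells, H2-Eb2 (0.296), Gpr18, Traf3ip3 and Acap1.

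Other genes of the pathway were taken from lists. Of the 7 transcription complex genes, which carry Ciita to the promoter, 3 were called higher at 12 weeks (Rfx5, Rfxank and Nfya) and 3 lower (Rfxap, Nfyb and Nfyc), beside 26.3% of all genes called higher and 27.2% called lower. None reached 1.5-fold, with log2 fold changes of -0.36 for Nfyb to 0.53 for Nfya, and the sum of the list ran from 220.5 to 272 CPM over all 15 mice. Over the same interval Ciita rose 15.5-fold.

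All 7 genes of the path from interferon gamma to Ciita were called higher (median log2 fold change 1.53), again beside 26.3% of all genes. Ifng, the cytokine, rose by 3.45 (SE 1.21, adjusted p = 0.0290), from 0.861, 0.171 and 0 CPM in the mice of 4 weeks to 5.12, 1.74 and 4.62 in those of 12 weeks. Irf1, a transcription factor that acts on the Ciita promoter, rose by 1.53, and the receptor chains Ifngr1 and Ifngr2 by 1.58 and 1.30. Like the class II genes, Irf1 was low in 8-week replicate 1, at 37.8 CPM against 101 and 121 in the other mice of 8 weeks. The macrophage, dendritic cell and T cell markers were low in that mouse as well. A link between Irf1 and the class II genes was not tested.

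Of 9 genes of endosomal processing 7 were called higher, against the same 26.3% of all genes. Ctss, the protease that trims the invariant chain in class II cells, rose by 3.09 (adjusted p = 0.00331), Ctsh by 2.93, Ifi30, a thiol reductase, by 2.27 and March1, a ubiquitin ligase for class II, by 4.19. Ctsl and Cd63 were not called, at log2 fold changes of 0.14 and -0.19. Cd80, Cd86 and Cd40, the costimulatory genes, rose by 4.09, 3.93 and 2.52 (that of Cd80 fitted against 15, 1 and 0 counts at 4 weeks), and Cd4 and Lag3, which bind class II on T cells, rose by 4.74 and 4.59.

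**Figure D5:**
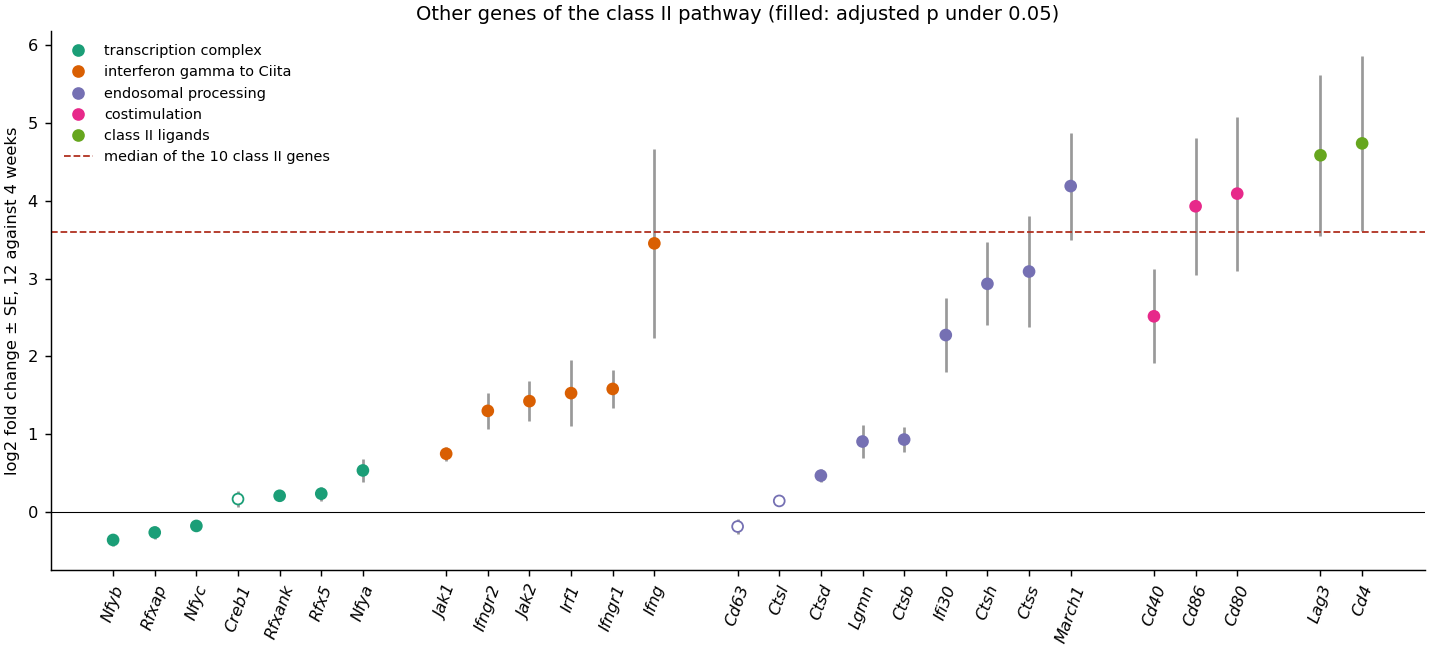
Points give the log2 fold change (with SE) from 4 to 12 weeks of other class II pathway genes, grouped by list and filled where the adjusted p was under 0.05, and the dashed line marks the median of the 10 class II genes, 3.60. The transcription complex genes lie between -0.36 and 0.53, and the genes drawn for the interferon gamma path lie above 0.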

How the data were processed

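Islet RNA of 15 NOD females was analysed, 3 mice per age. Per the labels and the study's methods, libraries were polyadenylated RNA, and the authors used CLC Genomics Workbench 23.0 at its defaults to trim, align and count reads, and the submitters' notes name mm10. The deposited counts are whole reads per gene without normalization, and the deposited TPM values, scaled by the authors per transcript length and library, served only to order levels between genes. Another 30 per-sample columns (RPKM and CPM) were not used.

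Genes were filtered with filterByExpr (16554 kept), scaled by TMM and fitted in edgeR 4.0.16 under R 4.3.3 with one mean per age, and contrasts were tested by quasi-likelihood F test with Benjamini-Hochberg adjustment over all genes tested, calling an adjusted p under 0.05. The study's threshold (1.5-fold, unadjusted p under 0.05) was counted too. Log2 ratios used a prior count of 2 and exact two-sided permutation tests, with Benjamini-Hochberg adjustment over 11 ratios. Counts under 3 were taken as the floor. Alternatives were DESeq2 1.42.0, its size factors, library totals, no filter, 2 ages alone, the exact test, a prior count of 0.5, the replicate number as a block and each mouse left out. The pipeline was tested on simulated data.

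The 10 genes, and the lists of pathway genes and cell markers, were chosen with earlier results of these data known, and every gene of a list was kept. Named genes are the 10, the listed genes and the 5 genes nearest in pattern to H2-Aa, Ciita and H2-Ob. Of the listed genes, H2-Ea was not analysed here, and Marchf1 was read under its older symbol, March1. Some listed genes count in their lists but are not reported by name here. Promoter windows came from RefSeq (GRCm38.p6). The gene regions of the deposited table equalled those of GENCODE M21 for 88.4% of genes matched by identifier, and for 2 of the 10.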

Additional observations from a re-analysis of the deposited data

How the results depend on the processing

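All 10 genes were called higher from 4 to 12 weeks under every alternative run and with each mouse left out, and in the comparison of 10 and 12 with 4 and 6 weeks under those run for it, which left out the exact test and the fit of 2 ages alone. From 6 to 8 weeks the number called ran from 0 to 3 over the mice left out. The 3 appeared without 8-week replicate 1, a fit for which the share of all genes called is not given here. At the study's threshold that comparison gave 8 of 10 in the main fit, 3 with the replicate block, 4 with 2 ages alone, 9 by DESeq2 and 10 by the exact test, with library totals or without the filter. From 8 to 10 weeks it gave 5, and 2 with the replicate block, 3 by DESeq2 and 8 by the exact test. Shares of all genes are given here for the main fit only. The counts under the alternatives are therefore not read as a result about the class II genes. From 4 to 6 weeks 3 passed it without 4-week replicate 1, and the share of all genes passing in that fit is not given here. Same-numbered mice of different ages correlated at -0.50 to 0.51 in their deviations, with at least 1 negative pair in every comparison. Mice of different numbers were not compared, so these values cannot show whether replicate numbers paired the mice. The block left all 10 genes called from 4 to 12 weeks.

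Small changes turned their direction with the mouse left out. From 4 to 6 weeks the log2 fold changes ran from -0.44 to 1.63 for H2-Aa, -0.39 to 1.66 for H2-Ab1, -0.42 to 1.67 for H2-Eb1, -0.23 to 1.56 for Cd74, -0.71 to 1.67 for Ciita, -0.18 to 0.93 for H2-DMa, -0.42 to 1.55 for H2-DMb1, -0.49 to 2.05 for H2-DMb2, -0.30 to 4.55 for H2-Oa (the upper value fitted against 1 and 0 counts) and -0.24 to 2.80 for H2-Ob. From 10 to 12 weeks they ran from -0.19 to 0.27 for H2-Aa, -0.17 to 0.26 for H2-Ab1, -0.18 to 0.27 for H2-Eb1, -0.17 to 0.34 for Cd74, -0.19 to 0.36 for Ciita, -0.18 to 0.28 for H2-DMa, -0.18 to 0.29 for H2-DMb1 and -0.11 to 0.36 for H2-Oa. Log2 ratios to H2-Aa between 12 and 4 weeks ran from -0.10 to 0.10 for Cd74 (-0.00068 with a prior count of 0.5), -0.084 to 0.036 for H2-Ab1 and -0.012 to 0.107 for H2-Eb1. That of H2-Oa to H2-Ob ran from -0.294 to 0.059 (0.59 with a prior count of 0.5), and from -0.067 to 0.168 over 6 against 6 mice. The causes of these moves were not tested. With 3 mice per age, the steps between neighbouring ages are limited by the spread between mice, and H2-Oa at 4 weeks by its counts.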
